A study of Arabidopsis thaliana with 59 samples.

Results

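In Arabidopsis plants carrying ein5-1, 128 of 32375 annotated genes met 3 conditions on their 22-nt small RNA signal and are described here. Signal in ein5-1 was at least 10 units, ein5-1 exceeded the larger of Col-0 and ski2-2 by at least 4-fold after 1 unit was added to each, and ein5-1 dcl4-2 stayed below 8-fold of ein5-1 on the same scale. A unit is the value the authors deposited for 22-nt reads over a gene, headed TPM and given as 1 mean per genotype. The values in ein5-1, Col-0, ski2-2 and ein5-1 dcl4-2 therefore chose the genes and are not tested against each other, whereas the other 11 genotypes took no part in the choice. Without the limit on ein5-1 dcl4-2, 158 genes met the conditions.

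The series profiled small RNAs from aerial parts of untreated plants aged 20 days, grown on MS medium for 6 days and then on soil for 14. There were 15 genotypes. The decay mutant ein5-1 was taken alone, with dcl2-1, with dcl4-2, and with dcl4-2 plus 1 of dcl2-1, ago1-45 or ago1-27, and the decay mutant ski2-2 was taken alone and in the same 5 combinations. The single mutants dcl4-2 and dcl2-1 and wild-type Col-0 completed the set. Each genotype had 4 libraries except ski2-2 dcl4-2 ago1-27, which had 3, and the submitters call them biological replicates without saying whether they were grown or collected apart. The labels name 1 allele of each gene and 2 of AGO1 and do not say what function each allele leaves. Aerial parts mix many cell types, so fewer cells of a type and less RNA per cell cannot be told apart.

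EIN5 (XRN4) is an exoribonuclease of the cytoplasm that removes mRNAs lacking a cap, working from the 5′ end, and SKI2 is the helicase that feeds mRNA to the exosome for decay from the 3′ end. When decay is impaired, aberrant mRNAs can be copied into double-stranded RNA by RDR6 and diced into small interfering RNAs. DCL4 makes the 21-nt class and DCL2 the 22-nt class from such templates, and both kinds can be loaded by AGO1, which carries out silencing. A 22-nt read counted over a gene need not be a DCL2 product, because fragments of an abundant mRNA can have the same length.

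The sequences below show the only known regulatory site examined among the 128 genes and 2 pairs of copies that share 22-base windows. They are read from the RefSeq genome of build TAIR10.1. The first is miR171a-3p at chr3:19073521-19073541 on the plus strand, with its seed, bases 2 to 8, in capitals. The next is the matching site within the coding sequence of HAM3 at chr4:58411-58431 on the minus strand, with the bases that pair with the seed in capitals.
miR171a-3p: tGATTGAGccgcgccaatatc
HAM3 site: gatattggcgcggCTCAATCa
The site is a full complement of the microRNA with 0 mismatches, and HAM3 was the only 1 of the 128 genes whose transcript held it.

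AT1G18000 and AT1G18010, annotated as transporters of the major facilitator superfamily, lie head to head on chromosome 1 with identical coding sequences of 1380 bases. Their first 60 coding bases follow, with the start codon in capitals, at chr1:6195988-6196047 on the minus strand and chr1:6199980-6200039 on the plus strand.
AT1G18000: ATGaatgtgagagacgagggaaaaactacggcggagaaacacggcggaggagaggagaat
AT1G18010: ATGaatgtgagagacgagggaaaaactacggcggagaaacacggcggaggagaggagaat
PDX1.1, an enzyme of vitamin B6 synthesis, and PDX1L4, a short copy of it on the same chromosome, are the other pair, at chr2:16011475-16011534 and chr2:16007198-16007257, both on the plus strand.
PDX1.1: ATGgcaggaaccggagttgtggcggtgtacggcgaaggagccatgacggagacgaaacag
PDX1L4: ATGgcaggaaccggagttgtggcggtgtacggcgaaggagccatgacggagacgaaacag
Of the 240 coding bases of PDX1L4, 239 aligned without a difference to PDX1.1. PDX1.1 shared 36.1% of its 22-base windows with other transcripts and PDX1L4 47.0%. How reads in shared windows were assigned is not given in the sources used here, so the values of both pairs are uncertain between the copies. Across the 128 genes, 16 shared no 22-base window with another annotated transcript, 108 shared fewer than 3% of windows and 11 shared 30% or more. A further source of doubt is that 15 genes overlapped a gene on the opposite strand and 5 a gene on the same strand, and no source used here says whether strand was counted.

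The 128 genes had a median of 20.1 units in ein5-1, with a range of 10.05 to 429 units, against a median of 1.55 units in Col-0, where 111 of them were below 5 units. They summed to 4837 units in ein5-1 and 399 units in Col-0. The 5 genes just inside the minimum in ein5-1 were ADS1 at 10.05 units, AT5G49100 at 10.4, AT2G36026 at 10.5, and RHA2A and UCN at 10.6 units each. Just outside were AT1G02110 at 9.86 units, AT5G53730 at 9.84, AT4G34750 at 9.74, AT3G25870 at 9.48 and scpl50 at 9.36 units. On the ratio to the larger of Col-0 and ski2-2, AT5G67350 at 4.01 and AT5G17600 at 4.03 were just inside, and AT3G44430 at 3.93 and XIP1 at 3.91 just outside. On the ratio of ein5-1 dcl4-2 to ein5-1, AT1G66180 at 7.27 and AT4G20880 at 6.93 were just inside, and AT1G22030 at 10.5 and PUB25 at 10.9 just outside.

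Loss of DCL2 alone left the signal in ein5-1 almost as it was, while loss of DCL4 together with DCL2 removed most of it. The median was 3.97 units in ein5-1 dcl4-2 dcl2-1, 20.7 units in ein5-1 dcl2-1, 34.6 units in ein5-1 dcl4-2 and 20.1 units in ein5-1. At least 10 units were reached by 21 of the 128 genes in ein5-1 dcl4-2 dcl2-1, by 119 in ein5-1 dcl2-1 and by 121 in ein5-1 dcl4-2. In the ski2-2 genotypes the medians ran between 0.856 and 2.38 units, and at most 10 of the genes reached 10 units in any of them. In the single mutants the median was 1.61 units in dcl4-2 and 1.4 units in dcl2-1.

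**Figure D1:**
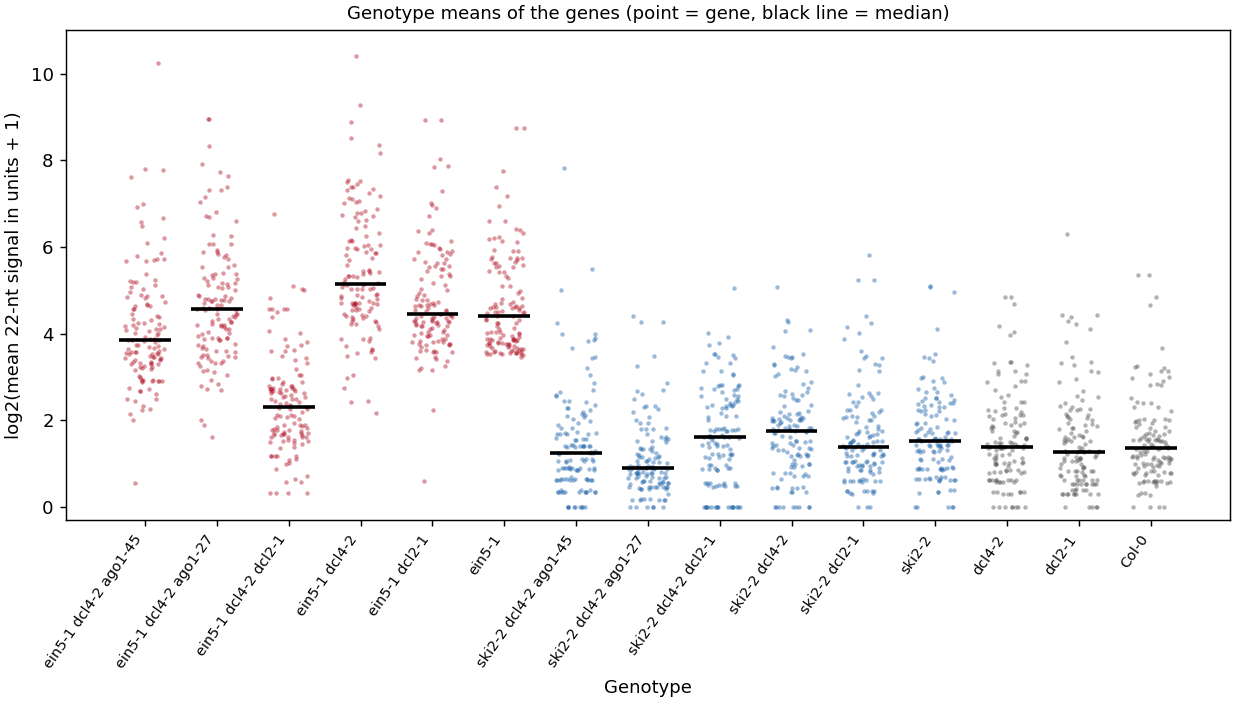
Mean 22-nt signal of each of the 128 genes in each of the 15 genotypes, as log2(units + 1), with 1 point a gene and the median as a black line. The genes are high in ein5-1 alone and with dcl2-1, dcl4-2 or either ago1 allele, with a median of 3.97 units in ein5-1 dcl4-2 dcl2-1 and of at most 2.38 units in every ski2-2 genotype.

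The authors' genotype means could be resolved into single libraries for nearly all genes, because each library contributes whole multiples of what 1 of its reads is worth. Libraries are called A to D in the order of that worth, which ran from 0.330 to 4.74 units a read, and the letters pair nothing between genotypes. Library D of ski2-2 dcl4-2 was the shallowest, with 21392 recovered reads. Over the 94 genes resolved in every library, the sum was 346, 304, 433 and 441 units in libraries A to D of ein5-1 dcl4-2 dcl2-1. It was 1953 to 2075 units in the libraries of ein5-1 dcl2-1 and 1753 to 1918 units in those of ein5-1. In those of Col-0 it was 139 to 155 units. The libraries of dcl2-1 had 172 to 199 units and those of dcl4-2 154 to 178 units. The 4 libraries of ein5-1 dcl4-2 dcl2-1 thus lay below all libraries of ein5-1 dcl2-1 and above all libraries of dcl2-1 and dcl4-2. They also lay below those of ein5-1 and above those of Col-0, but both of these genotypes chose the genes, so that is a description. The 4 libraries of ein5-1 dcl4-2 ago1-27 were the most spread, at 1163, 1853, 2237 and 2612 units.

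**Figure D2:**
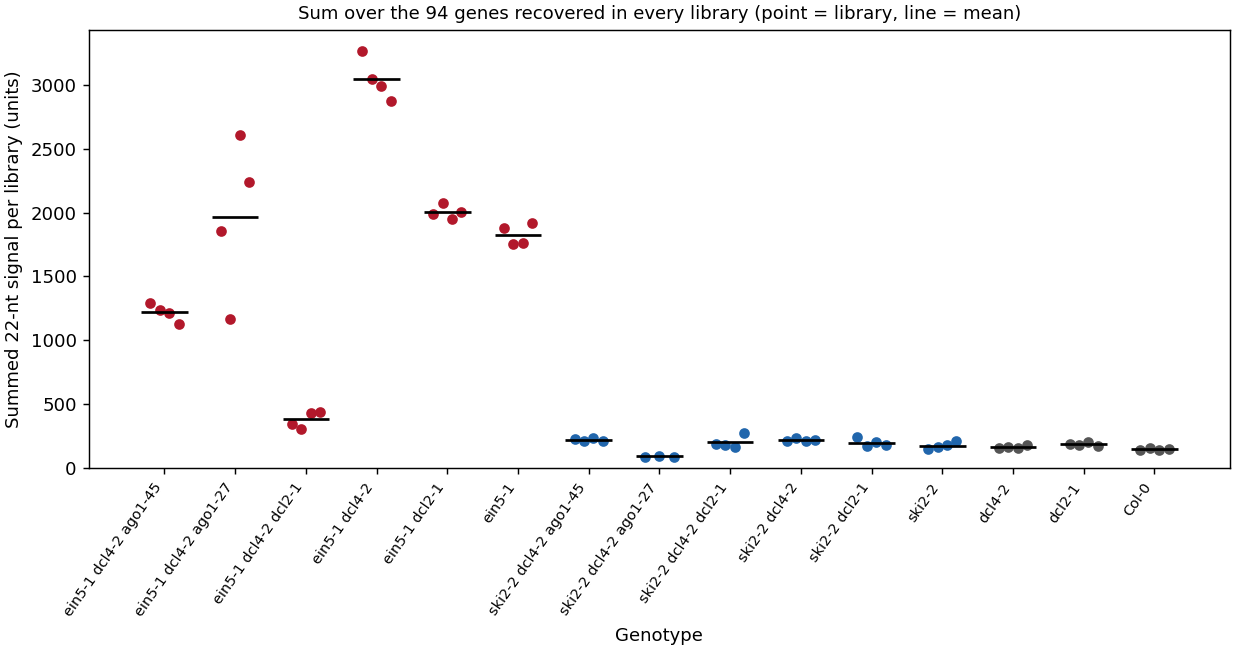
Summed 22-nt signal, in units, of the 94 genes whose libraries were resolved in every genotype, with 1 point a library and a line at the genotype mean. The ein5-1 dcl4-2 dcl2-1 libraries sit at 304 to 441 units, those of ein5-1 dcl2-1 at 1953 to 2075 and those of ein5-1 at 1753 to 1918, and no ski2-2 genotype exceeds 274 units in a library.

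Signal of a leaf list moved as well. The 20 photosynthesis genes on a list of leaf mRNAs ranged over 102 to 1029 units in ein5-1 dcl4-2 dcl2-1, 113 to 862 units in ein5-1 dcl2-1, 40.6 to 266 units in ein5-1, 80.6 to 695 units in dcl2-1 and 144 to 680 units in Col-0. All 20 were below their Col-0 value in ein5-1 and 6 of 20 in ein5-1 dcl2-1. Of 6 flower genes, AP3 and PI were at 0 in these 5 genotypes, and none of the 6 exceeded 1 unit in any of them. The part of these differences in the values of the 128 genes was not tested.

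The first comparison asked whether genes raised in ein5-1 were still raised when both genotypes lacked DCL2. Of the 128 genes, 10 could not be resolved into libraries in ein5-1 dcl2-1 and 118 were tested. In ein5-1 dcl2-1, 116 were higher than in dcl2-1 in limma at a Benjamini-Hochberg adjusted p below 0.05, 1 (AT2G15340) was lower and 1 (ADS1) did not pass. Over all 13095 genes tested, 7.53% were higher and 1.42% lower. The median log2 difference of the 118 genes, on the log2(units + 1) scale, was 3.42, against 0.26 for all genes. For 116 of the 118 genes the libraries did not overlap between the genotypes. The same count was not made over all genes, so it has no share to be read against. Reads in dcl2-1 were few: 5 of the tested genes had none in its 4 libraries, and with these at the bound that 3 reads over the group allow, the median was 3.43. The 10 genes not resolved were the 10 highest by mean in ein5-1 dcl2-1, at 104 to 484 units.

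The ratio of the ein5-1 dcl2-1 mean to the ein5-1 mean had a median of 1.09, and 124 of the 128 genes lay within 2-fold. BEH1, a homolog of the brassinosteroid factor BES1, was more than 2-fold higher in ein5-1 dcl2-1, and AT2G15340, ADS1 and EXPA4 were more than 2-fold lower. The other 2530 genes with at least 10 units in ein5-1 had a median ratio of 0.905. They are unlike the 128 in gene class. Of all genes with at least 10 units in ein5-1, 55.4% are annotated as pseudogenes and 35.25% as protein-coding, while 127 of the 128 are protein-coding. Across the 128 genes, log2(units + 1) in ein5-1 dcl2-1 and in ein5-1 had a Pearson r of 0.93 and a Spearman rho of 0.91. The points share the genotypes' libraries and a choice on ein5-1, so these are descriptions.

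BRG2, a RING-type protein that negatively regulates defence, is an example with all libraries resolved. It had 1.97, 2.98, 3.17 and 14.3 units in ein5-1 dcl4-2 dcl2-1, 43.6, 67.3, 61.2 and 59.2 units in ein5-1 dcl2-1, 84.0, 94.0, 81.8 and 73.6 units in ein5-1, and 2.66, 1.79, 1.25 and 1.29 units in dcl2-1. The ein5-1 dcl2-1 and ein5-1 libraries stood well above the others, and the ranges of ein5-1 dcl4-2 dcl2-1 and dcl2-1 overlapped. Every ein5-1 dcl2-1 library lay below every ein5-1 library, which is a description because the gene was chosen for a high value in ein5-1. The log2 difference was 4.43 ± 0.34 (SE) for ein5-1 dcl2-1 over dcl2-1 and -3.47 ± 0.33 for ein5-1 dcl4-2 dcl2-1 over ein5-1 dcl2-1, with limma adjusted p of 4.95e-25 and 7.17e-23.

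SHORT-ROOT (SHR), a GRAS transcription factor that moves between cells, had 1.97, 1.99, 1.06 and 5.19 units in ein5-1 dcl4-2 dcl2-1, 19.0, 28.4, 13.3 and 17.9 units in ein5-1 dcl2-1, 22.2, 26.6, 21.5 and 24 units in ein5-1, and 0.888, 0.894, 1.25 and 1.29 units in dcl2-1. Unlike for BRG2, the ein5-1 dcl2-1 range overlapped that of ein5-1. It lay above those of ein5-1 dcl4-2 dcl2-1 and dcl2-1. The log2 difference was 3.27 ± 0.45 over dcl2-1 with a limma adjusted p of 1.41e-09, and ein5-1 dcl4-2 dcl2-1 differed from ein5-1 dcl2-1 by -2.61 ± 0.46 with a limma adjusted p of 1.21e-06.

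The second comparison asked what the further loss of DCL4 did in plants that lacked EIN5 and DCL2. In ein5-1 dcl4-2 dcl2-1, 110 of 117 genes tested were lower than in ein5-1 dcl2-1 and 0 higher, in limma at an adjusted p below 0.05. The shares over all 14346 genes tested were 3.39% lower and 0.655% higher. At an unadjusted p below 0.05 the test passed 113 of the genes, and each of the 117 differences was negative. Shares over all genes were not computed for these 2 counts. Of the 128 genes, 10 were not resolved and 1, AT2G15340, fell below the filter of 1 unit. AT2G15340 was the only 1 of the 128 with a ratio of means above 1, at 1.14 units in ein5-1 dcl4-2 dcl2-1 and 0.516 units in ein5-1 dcl2-1. The median log2 difference was -2.45 for the 117 genes and -0.08 for all genes. The 7 genes that did not pass were the ethylene response factors ERF3 and RAP2.4, the F-box protein AUF1, the mitochondrial carrier UCP5, the vascular gene OPS, the transporter ADS1 and AT4G34950. On means, 121 of the 128 genes were lower by 2-fold or more, with a median ratio of 0.157, against 1.01 for the other 2530 genes with at least 10 units in ein5-1. Unlike the 128 genes, most of those other genes are not annotated as protein-coding. All 110 of the lower genes were among the 116 that were higher in ein5-1 dcl2-1 than in dcl2-1, which is 94.8% of the 116 genes. Over all genes, 369 of the 487 lower genes were among the 986 higher ones. That is 75.8% of the 487 and 37.4% of the 986. The 2 comparisons share the ein5-1 dcl2-1 libraries.

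**Figure D3:**
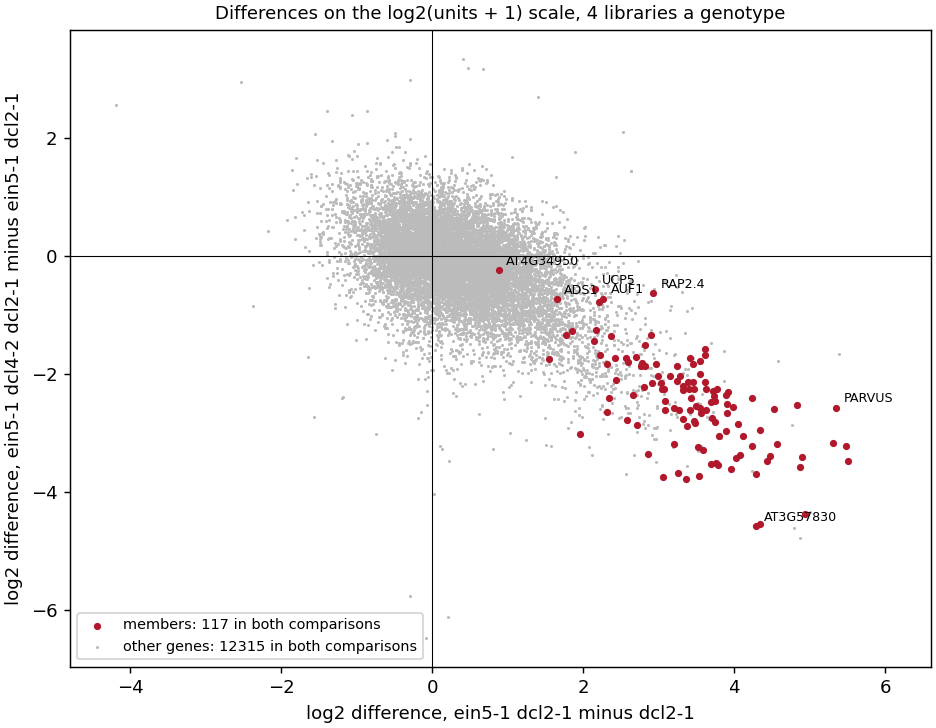
Log2 difference of ein5-1 dcl2-1 minus dcl2-1 on the x axis and of ein5-1 dcl4-2 dcl2-1 minus ein5-1 dcl2-1 on the y axis, on the log2(units + 1) scale, for 117 of the 128 genes in red and 12315 other genes in grey. Both axes share the ein5-1 dcl2-1 libraries, so a negative slope is built in. The red points lie at the lower right, with AT4G34950, ADS1, UCP5, AUF1 and RAP2.4 nearest to 0 on the y axis.

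What was left in ein5-1 dcl4-2 dcl2-1 had a median of 3.97 units, against 1.4 units in dcl2-1, over all 128 genes. Of the 128 genes, 13 were below the filter of 1 unit and 1 was not resolved. Of 114 tested, 14 were higher in ein5-1 dcl4-2 dcl2-1 than in dcl2-1 and 1, AT2G15340, lower, against 2.79% higher and 2.06% lower over all genes tested. The median log2 difference was 0.97 for the 114 genes and 0.22 for all genes, and 102 of the 114 differences were positive. The share of positive differences over all genes was not computed. The 14 genes were AT1G01300, AT1G13360, PARVUS, AT1G64620, RAP2.4, AUF1, AT2G15320, AT2G18560, EBF1, EXPA4, AZG1, SOS5, CDF3 and AT4G18670. The count was 9 without library A of dcl2-1, 7 without its library D, and 6 without either library C or library D of ein5-1 dcl4-2 dcl2-1.

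RAP2.4, a factor of the ERF/AP2 family in drought and light responses, kept the most of its signal among those 14 genes relative to ein5-1 dcl2-1. It had 29.5, 31.8, 42.3 and 28.5 units in ein5-1 dcl4-2 dcl2-1, 41.7, 53.1, 65.3 and 46.9 units in ein5-1 dcl2-1, 42.0, 50.6, 50.1 and 49.7 units in ein5-1, and 8.88, 6.26, 7.53 and 2.58 units in dcl2-1. The ein5-1 dcl4-2 dcl2-1 libraries lay above every dcl2-1 library and just overlapped those of ein5-1 dcl2-1. The log2 difference was 2.30 ± 0.35 over dcl2-1, with a limma adjusted p of 3.71e-08, and -0.63 ± 0.22 over ein5-1 dcl2-1, with a limma adjusted p of 0.0914. Without library C of ein5-1 dcl4-2 dcl2-1 the second difference was -0.75 with a limma adjusted p of 0.0288.

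PARVUS, a glycosyltransferase of xylan synthesis in the cell wall, had 11.8, 8.93, 8.46 and 11.7 units in ein5-1 dcl4-2 dcl2-1, 85.3, 63.5, 53.1 and 62.6 units in ein5-1 dcl2-1, 77.5, 64.4, 68.9 and 77.1 units in ein5-1, and 0.888, 2.68, 0 and 0 units in dcl2-1. The 4 levels did not overlap except between ein5-1 dcl2-1 and ein5-1. Its log2 difference was 2.78 ± 0.59 for ein5-1 dcl4-2 dcl2-1 over dcl2-1 and -2.57 ± 0.27 over ein5-1 dcl2-1, with limma adjusted p of 0.000314 and 1.54e-18. SOS5, a fasciclin-like arabinogalactan protein, had a mean of 15.6 ± 4.34 units (SD, n = 4) in ein5-1 dcl4-2 dcl2-1 and 3.16 ± 1.93 units in dcl2-1, a log2 difference of 2.08 ± 0.46 with a limma adjusted p of 0.000836. Its mean was 125 units in ein5-1 dcl2-1 and 95.5 units in ein5-1.

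EBF1, an F-box protein that targets EIN3 for degradation and so restrains ethylene signalling, had 10.8, 10.9, 22.2 and 35.0 units in ein5-1 dcl4-2 dcl2-1, 87.2, 86.3, 75.5 and 74.8 units in ein5-1 dcl2-1, and 8.88, 8.05, 6.27 and 3.87 units in dcl2-1. Its mean was 78.4 units in ein5-1 and 8.17 ± 3.70 units (SD, n = 4) in Col-0. The difference was 3.45 ± 0.25 for ein5-1 dcl2-1 over dcl2-1 and -2.14 ± 0.23 for ein5-1 dcl4-2 dcl2-1 over ein5-1 dcl2-1, with limma adjusted p of 1.5e-27 and 5.68e-18. For ein5-1 dcl4-2 dcl2-1 over dcl2-1 it was 1.3 ± 0.39 with a limma adjusted p of 0.0256. That call was lost without library C or D of either genotype, with adjusted p of 0.0542 to 0.205 in limma. CDF3, a DOF factor of flowering and stress responses, had 9.90 ± 5.48 units (SD, n = 4) in ein5-1 dcl4-2 dcl2-1, 55.6 ± 5.21 units in ein5-1 dcl2-1 and 1.18 ± 1.07 units in dcl2-1. Its difference of 2.31 ± 0.58 for ein5-1 dcl4-2 dcl2-1 over dcl2-1 had a limma adjusted p of 0.00428, which was 0.0577 without library C of ein5-1 dcl4-2 dcl2-1.

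**Figure D4:**
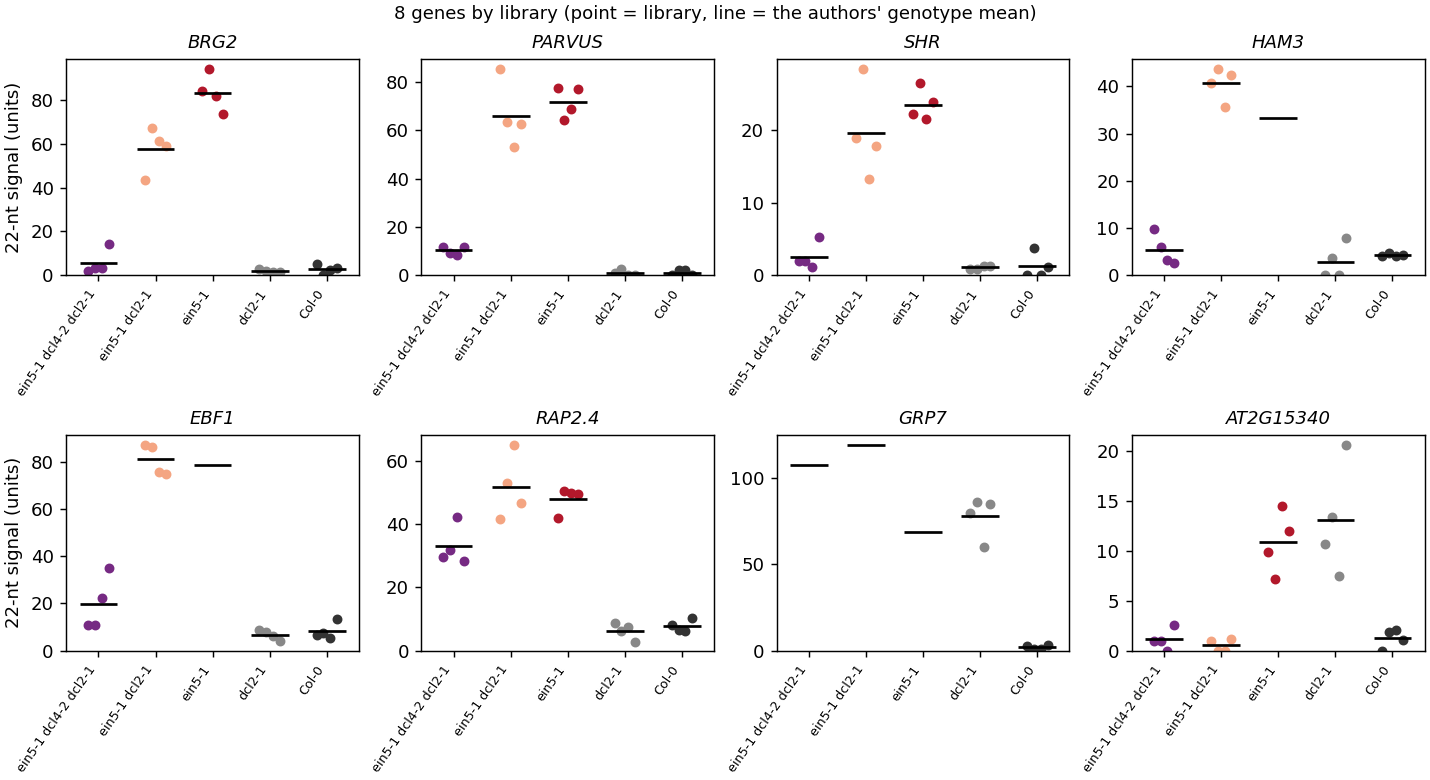
22-nt signal, in units, of 8 genes in 5 genotypes, with 1 point a library and a line at the authors' mean. Means without points could not be resolved into libraries. BRG2, PARVUS, SHR, HAM3 and EBF1 are low in ein5-1 dcl4-2 dcl2-1, RAP2.4 stays at 28.5 to 42.3 units there, GRP7 is at 60.2 to 85.8 units in dcl2-1, and AT2G15340 is at most 1.12 units in ein5-1 dcl2-1.

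A few genes had signal in dcl2-1 alone. AT2G15340, which the annotation describes by no role used here, had 0.948, 0, 0 and 1.12 units in ein5-1 dcl2-1, 9.88, 7.16, 14.5 and 12 units in ein5-1, and 10.7, 13.4, 7.53 and 20.6 units in dcl2-1. The ranges of dcl2-1 and ein5-1 overlapped and the double mutant lay near 0, with a log2 difference of -3.22 ± 0.53 for ein5-1 dcl2-1 over dcl2-1 and a limma adjusted p of 3.69e-07. Its mean was 10.2 units in ski2-2 dcl2-1 and 1.24 units in Col-0. AT4G34950, annotated as a major facilitator transporter, had 20.7, 16.9, 43.4 and 45.4 units in ein5-1 dcl4-2 dcl2-1, 29.4, 37.0, 29.6 and 43.6 units in ein5-1 dcl2-1, 23.2, 20.4, 17.2 and 31.4 units in ein5-1, and 24, 12.5, 17.6 and 20.6 units in dcl2-1. Its mean in Col-0 was 1.94 units, so it was already high in dcl2-1 alone. Its difference of 0.88 ± 0.24 for ein5-1 dcl2-1 over dcl2-1 had a limma adjusted p of 0.00582. Without library B of dcl2-1 it was 0.72 with a limma adjusted p of 0.0520, and without library D of ein5-1 dcl2-1 0.77 with a limma adjusted p of 0.0542.

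GRP7, a glycine-rich RNA-binding protein of the circadian clock, showed the same feature at a higher level. It had 79.9, 85.8, 60.2 and 85.1 units in dcl2-1, against 2.44, 0.943, 1.02 and 3.12 units in Col-0. Its means were 108 units in ein5-1 dcl4-2 dcl2-1, 119 units in ein5-1 dcl2-1, 361 units in ein5-1 dcl4-2 and 68.8 units in ein5-1. It was not resolved in these, so it was not tested there. COR413-PM1, a cold-regulated membrane protein, averaged 27.3 ± 7.12 units in ein5-1 dcl4-2 dcl2-1, 66.0 ± 10.7 units in ein5-1 dcl2-1, 39.2 ± 4.87 units in ein5-1, 17.5 ± 2.74 units in dcl2-1 and 6.91 ± 2.75 units in Col-0 (SD, n = 4 each). In all, 8 of the 128 genes had at least 10 units in dcl2-1, and 3 of these, GRP7, AT4G34950 and AT2G15340, were below 5 units in Col-0.

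Counts by role are to be read beside those of all of the 128 genes that were tested. Of these, 116 of 118 were higher in ein5-1 dcl2-1 than in dcl2-1, where 7.53% of all genes were. In ein5-1 dcl4-2 dcl2-1, 110 of 117 were lower than in ein5-1 dcl2-1, where 3.39% of all genes were. Differences between roles were not tested. By role, in groups formed after the members were known, the 26 transcription factors were the largest named class. All 26 were higher in ein5-1 dcl2-1 than in dcl2-1, and 24 were lower in ein5-1 dcl4-2 dcl2-1 than in ein5-1 dcl2-1 in limma. Examples are ERF4, a repressor of ethylene responses, with 6.35 ± 5.43 units in ein5-1 dcl4-2 dcl2-1, 20.0 ± 3.80 units in ein5-1 dcl2-1 and 2.63 ± 1.93 units in dcl2-1, and TCP15, a regulator of cell division in organs, with 3.27 ± 1.53, 13.5 ± 1.73 and 1.21 ± 0.84 units in those genotypes (SD, n = 4 each). Other members were the ethylene response factors ERF3, ERF7 and ERF15, the cytokinin response factor CRF6, TCP23, the homeobox factors HB28 and HB30, and NF-YB3.

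The 16 proteins with RING, U-box, F-box, kelch or BTB domains, many of them ubiquitin ligase components, were all higher in ein5-1 dcl2-1 than in dcl2-1, and 15 were lower in ein5-1 dcl4-2 dcl2-1 than in ein5-1 dcl2-1. RDUF1, a RING ligase of stress responses, had 5.90 ± 5.32 units in ein5-1 dcl4-2 dcl2-1, 24.2 ± 3.23 units in ein5-1 dcl2-1, 19.0 ± 4.50 units in ein5-1 and 1.61 ± 1.91 units in dcl2-1 (SD, n = 4 each). PUB26, a U-box ligase of immunity, averaged 2.49, 11, 10.7 and 0.222 units in the same order of genotypes. Its near relative PUB25 was one of the genes left out by the limit on ein5-1 dcl4-2.

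Of the 8 cell wall genes, 6 were tested, and all 6 were higher in ein5-1 dcl2-1 and lower in ein5-1 dcl4-2 dcl2-1. The 8 cell wall genes include GATL3, GATL6 and GATL7 of the galacturonosyltransferase-like family, the glycosyltransferase GT18 and EXPA4, an expansin that loosens walls. LRX3, an extensin chimera with leucine-rich repeats, is also among the 8 but was not resolved in ein5-1 dcl2-1 and not tested. LRX3 was the highest of them in ein5-1, with 31.3 units in ein5-1 dcl4-2 dcl2-1, 156 units in ein5-1 dcl2-1, 122 units in ein5-1 and 19.8 units in dcl2-1. EXPA4 had 3.94, 0.993, 5.29 and 10.4 units in ein5-1 dcl4-2 dcl2-1, 39.8, 43.6, 48.0 and 51.4 units in ein5-1 dcl2-1 and 0, 0.894, 0 and 0 units in dcl2-1. The dcl2-1 value is 1 read, and the ratio of ein5-1 dcl2-1 to dcl2-1 was 204 with a 95% Poisson interval of 30.3 to 6676, which covers counting error only. For ein5-1 dcl4-2 dcl2-1 over dcl2-1 the limma adjusted p was 0.0359. It was 0.168 without library D of ein5-1 dcl4-2 dcl2-1, and leaving out library A or C of that genotype or library A, C or D of dcl2-1 also ended the call.

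All 5 aspartyl proteases, all 5 kinases and the 4 ovate family genes, which repress transcription, passed both tests, as most of the 128 genes tested did. AT3G57830, a receptor-like kinase, had the largest difference between these genotypes on the log2(units + 1) scale. It had 0.984, 1.99, 2.12 and 0 units in ein5-1 dcl4-2 dcl2-1, 45.5, 52.1, 47.0 and 49.1 units in ein5-1 dcl2-1, and 29.6, 52.6, 38.8 and 45.1 units in ein5-1. The difference was -4.57 ± 0.42 for ein5-1 dcl4-2 dcl2-1 over ein5-1 dcl2-1 with a limma adjusted p of 7.38e-25. Of the 4 UDP-glycosyltransferases, which attach sugars to small molecules, 3 were tested and passed both tests. The fourth, AT2G18560, had means of 22.5 units in ein5-1 dcl4-2 dcl2-1, 233 units in ein5-1 dcl2-1, 144 units in ein5-1 and 3.77 units in dcl2-1. Among hormone genes, D14, the strigolactone receptor, averaged 6.42 units in ein5-1 dcl4-2 dcl2-1, 128 units in ein5-1 dcl2-1, 84.8 units in ein5-1 and 5.37 units in dcl2-1, and PYL5, an abscisic acid receptor, averaged 2.66, 16.3, 12.1 and 0.222 units in those genotypes.

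Of the 9 transport genes, 7 were tested, 6 were higher in ein5-1 dcl2-1 than in dcl2-1 and 4 lower in ein5-1 dcl4-2 dcl2-1 than in ein5-1 dcl2-1. The identical pair AT1G18000 and AT1G18010 was the highest of the 128 genes, with means of 22.8 units each in ein5-1 dcl4-2 dcl2-1, 484 and 483 units in ein5-1 dcl2-1, 429 and 428 units in ein5-1, and 20.4 units each in dcl2-1. These near-equal values are those of 1 shared set of reads. ADS1, a MATE transporter, had 8.53, 1.9, 2.04 and 2.23 units in ein5-1 dcl2-1 and 1.78, 0, 0 and 0 units in dcl2-1, a difference of 1.65 ± 0.61 with a limma adjusted p of 0.0682. Without library A of dcl2-1 it was 2.02 with a limma adjusted p of 0.0426. PDX1.1 averaged 13.6 units in ein5-1 dcl4-2 dcl2-1, 230 units in ein5-1 dcl2-1, 166 units in ein5-1 and 16.2 units in dcl2-1, and its short copy PDX1L4 3.95, 104, 74.3 and 4.80 units.

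Loss of DCL4 alone moved the genes apart from each other, within the limit the choice set. The ein5-1 dcl4-2 mean was 2-fold or more above ein5-1 for 58 genes, within 2-fold for 59 and 2-fold or more below for 11, with a median ratio of 1.74. AT1G13360 had 1345 units in ein5-1 dcl4-2 and 214 units in ein5-1, EXPA4 622 and 95.8 units, and BRG2 286 and 83.4 units. The 11 genes that were lower included PDX1L4, AT4G32800, GT18, OFP16, AT3G57830 and GATL6. GT18 averaged 20.7 ± 4.27 units in ein5-1 dcl4-2 and 51.8 ± 6.34 units in ein5-1, with libraries that did not overlap (SD, n = 4 each). Both genotypes took part in the choice, so that gap is a description. The 128 genes held 0.519% of all 22-nt units in ein5-1 dcl4-2 and 2.92% in ein5-1. Their log2 values in ein5-1 dcl4-2 had a Pearson r of 0.68 with those in ein5-1, over genes chosen on both.

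In the authors' deposited table, 120 of the 128 genes were higher in ein5-1 dcl4-2 than in ein5-1 dcl4-2 dcl2-1 at their adjusted p below 0.05 and 0 were lower, where 16.7% of all genes were higher and 4.02% lower. The 8 that did not pass in the authors' deposited table were AT1G76065, AT2G15340, COR413-PM1, EXL5, OFP16, BEH1, AT4G34950 and SADHU4-1. The median of the authors' log2 fold in the deposited table was 3.20 for the 128 genes and 0.72 for all genes. Against dcl4-2, the authors' deposited table calls 125 of the 128 higher in ein5-1 dcl4-2 and 0 lower, where it calls 19.7% and 4.78% of all genes. Both comparisons contain ein5-1 dcl4-2, which the choice bounded from above, so these counts are a description.

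Signal also differed between the AGO1 alleles. In ein5-1 dcl4-2 ago1-45, 47 of 127 genes tested were lower than in ein5-1 dcl4-2 ago1-27 and 1 was higher, where 13.6% of all genes tested were lower and 6.45% higher. The median log2 difference was -0.61 for the 127 genes and 0.07 for all genes. UGT84A3, which glucosylates hydroxycinnamates, had 10.8, 13.1, 14.9 and 10.8 units in ein5-1 dcl4-2 ago1-45, against 137, 85.2, 181 and 115 units in ein5-1 dcl4-2 ago1-27. The libraries did not overlap, and the difference was -3.25 ± 0.24 with a limma adjusted p of 1.22e-21. AT4G16140 was the higher gene, with a difference of 0.75 ± 0.24 and a limma adjusted p of 0.0171. This became 0.132, 0.0560 and 0.0516 without library A of ein5-1 dcl4-2 ago1-45 and libraries A and B of ein5-1 dcl4-2 ago1-27. EXPA4 went the other way on means, with 1212 units in ein5-1 dcl4-2 ago1-45 and 26.1 ± 5.57 units in ein5-1 dcl4-2 ago1-27 (SD, n = 4), but it was not resolved in ein5-1 dcl4-2 ago1-45 and not tested. The count of 47 was 19 when libraries were scaled to their reads at microRNA loci, a scaling that moved the median of all genes to 0.36, and 4 of 94 when all libraries entered 1 fit. Over all genes, 1113 of 16165 were lower with the microRNA scaling, against 2157 of 15910 without it. The photosynthesis list moved the other way: 16 of its 20 genes were tested and all 16 were higher in ein5-1 dcl4-2 ago1-45, with medians over the 20 genes of 367 units in ein5-1 dcl4-2 ago1-45 and 219 units in ein5-1 dcl4-2 ago1-27. Its part in the result was not tested. Relative to ein5-1 dcl4-2, the median ratio was 0.391 in ein5-1 dcl4-2 ago1-45 and 0.616 in ein5-1 dcl4-2 ago1-27, where the other genes with at least 10 units in ein5-1 had 0.419 and 0.843. Most of those other genes are not annotated as protein-coding.

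The ski2-2 genotypes were compared with the ein5-1 genotypes and with their DCL controls. In ein5-1 dcl2-1, 116 of 118 tested genes were higher than in ski2-2 dcl2-1 and 1, AT2G15340, lower, where 5.88% and 0.782% of all genes tested were. The median log2 difference was 3.14, against 0.20 for all genes. A gap of at least 4-fold between ein5-1 and ski2-2 was part of the choice. In ski2-2 dcl2-1, 0 of 86 tested genes differed from dcl2-1 in limma at an adjusted p below 0.05 in either direction, where 0.194% of all genes were higher and 0.123% lower. At an unadjusted p below 0.05 limma passed 9 of the 86, a count whose share over all genes was not computed. In ski2-2 dcl4-2, 7 of 98 tested genes were higher than in dcl4-2 and 5 lower, which lies near the shares of all genes, 7.77% and 6.12%. The count of 7 was 2 without library C of dcl4-2, and 4 without library B of dcl4-2 or library B of ski2-2 dcl4-2. The 7 were AT1G13360, TCP23, UCN, GRP7, DAG2, AT3G60080 and HAM3. AT1G18000, AT1G18010, AIR12, KFB50 and LRX3 were the 5 that were lower, a count of 3 without library C of dcl4-2. The authors' deposited table has an adjusted p for 83 of the genes in this comparison and calls 6 higher and 6 lower, where it calls 10.4% and 9.64% of all genes. For ski2-2 dcl4-2 over ski2-2 dcl4-2 dcl2-1 the authors' deposited table calls 6 of 97 higher and 3 lower, where it calls 7.3% and 8.93% of all genes.

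GRP7 averaged 32.5 units in ski2-2 dcl4-2 and 1.56 units in dcl4-2, a log2 difference of 3.89 ± 0.49 with a limma adjusted p of 2.48e-10. It averaged 4.13 units in ski2-2 dcl4-2 dcl2-1, a difference from ski2-2 dcl4-2 of -2.70 ± 0.46 with a limma adjusted p of 6.35e-07. Between ski2-2 dcl4-2 dcl2-1 and ski2-2 dcl4-2, 4 of 97 tested genes were lower (AT1G13360, GRP7, DAG2 and HAM3) and 3 higher (PDX1.1, AIR12 and AT3G52060), where 4.26% of all genes were lower and 7.1% higher. PDX1.1 averaged 31.9 ± 1.79 units in ski2-2 dcl4-2 dcl2-1 and 9.74 units in ski2-2 dcl4-2, a difference of 1.81 ± 0.40 with a limma adjusted p of 0.000228. In ein5-1 dcl4-2 dcl2-1 against ski2-2 dcl4-2 dcl2-1, 15 of 113 tested genes were higher and 1 lower, where 1.35% and 2.73% of all genes were. RAP2.4 was among the higher genes, with 33 ± 6.33 units against 4.93 units and a difference of 2.62 ± 0.42 at a limma adjusted p of 1.17e-07. PDX1.1 was the lower one, with a difference of -1.29 ± 0.34 with a limma adjusted p of 0.00861, which was 0.0552 without library C of ein5-1 dcl4-2 dcl2-1.

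HAM3, a GRAS factor of shoot meristems and the bearer of the miR171 site printed above, had 9.84, 5.96, 3.17 and 2.60 units in ein5-1 dcl4-2 dcl2-1, 40.8, 43.6, 35.7 and 42.4 units in ein5-1 dcl2-1, and 0, 3.58, 0 and 7.74 units in dcl2-1. Its mean was 175 units in ein5-1 dcl4-2, 33.3 units in ein5-1 and 4.26 ± 0.307 units in Col-0. The ein5-1 dcl2-1 libraries lay above all others of these resolved genotypes, with a difference of 4.05 ± 0.40 over dcl2-1 and a limma adjusted p of 3.23e-17. The triple mutant ein5-1 dcl4-2 dcl2-1 differed from ein5-1 dcl2-1 by -2.84 ± 0.35 with a limma adjusted p of 1.14e-13.

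HAM3 was also one of the few genes raised with ski2-2. It had 15.6, 30.6, 17.5 and 9.48 units in ski2-2 dcl4-2 and 7.11, 5.30, 4.30 and 8.61 units in dcl4-2, a difference of 1.32 ± 0.43 with a limma adjusted p of 0.0233. Without library B or C of either genotype the adjusted p in limma was 0.0513 to 0.152. In ski2-2 dcl4-2 dcl2-1 all 4 libraries were at 0, which allows up to 1.26 units by the limit of 3 reads over the group. HAM3 was therefore at least 14.6-fold higher in ski2-2 dcl4-2 than in ski2-2 dcl4-2 dcl2-1, with a limma adjusted p of 7.96e-07. In ein5-1 dcl4-2 dcl2-1 it was at least 4.29-fold higher than in ski2-2 dcl4-2 dcl2-1, with a limma adjusted p of 0.0229 that was 0.137 and 0.0827 without libraries A and B of ein5-1 dcl4-2 dcl2-1.

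Lists of related genes, chosen with earlier results of these data known, place 3 members in their pathways. Of 12 ethylene signalling genes, 8 were tested in ein5-1 dcl2-1 against dcl2-1, and 3 were higher (EBF1, EIN2 and EIL1) and 0 lower, with a median difference of 0.84 against 0.26 for all genes. EBF1 was the only 1 of the 8 that was lower in ein5-1 dcl4-2 dcl2-1 than in ein5-1 dcl2-1. Of 41 microRNA targets, HAM3 was the only member, and of 27 tested 6 were higher in ein5-1 dcl2-1 than in dcl2-1. Of 24 tested in ein5-1 dcl4-2 dcl2-1 against ein5-1 dcl2-1, 3 were lower (AFB2, AFB3 and HAM3) and 4 higher (PHB, PHV, REV and ATHB8). Of 4 root genes, 3 were tested. SHR and SCR, its partner in root patterning, were higher in ein5-1 dcl2-1 and lower in ein5-1 dcl4-2 dcl2-1. The other tested root gene, PYK10, was not called in either comparison. Its mean was higher, not lower, in ein5-1 dcl4-2 dcl2-1 than in ein5-1 dcl2-1. SCR averaged 1.39 units in ein5-1 dcl4-2 dcl2-1, 8.42 units in ein5-1 dcl2-1, 9.34 units in ein5-1 and 1.3 units in dcl2-1.

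The genes were short of introns, a property the choice did not use. Of the 127 protein-coding genes, 105 (82.7%) had a single exon in the annotation, against 20.1% of 26560 other protein-coding genes, 28.2% of 811 others with at least 10 units in ein5-1 and 20.7% of 859 others with at least 10 units in Col-0. The remaining member was the pseudogene SADHU4-1. Among protein-coding genes outside the 128, a single exon was found in 39.7% of 846 that were higher in ein5-1 dcl2-1 than in dcl2-1 and in 13.9% of 8138 tested genes that were not. The 22 members with introns included GRP7, EBF1, CDF3, BEH1, BRG2 and EXPA4, and AT1G33470 had the most exons, 6. Members with introns had a median of 23.2 units in ein5-1 and members without 18 units. Of 21 tested with introns, 21 were higher in ein5-1 dcl2-1 than in dcl2-1 and 20 lower in ein5-1 dcl4-2 dcl2-1 than in ein5-1 dcl2-1, and 95 of 97 and 90 of 96 without introns. Transcript length had a median of 1683 bases for members and 1503 bases for other protein-coding genes, and GC content medians were 42.1% and 41.4%.

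**Figure D5:**
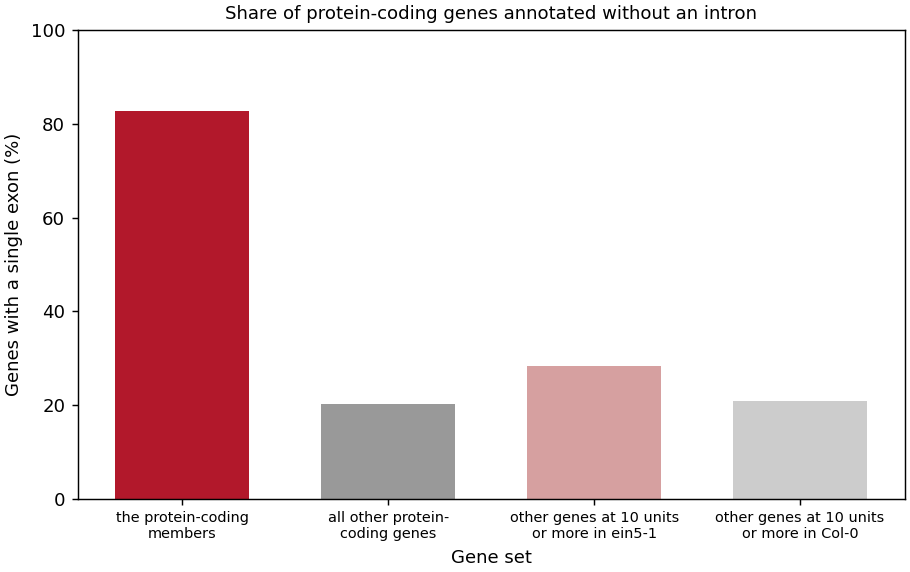
Share of protein-coding genes annotated with a single exon, in percent, for the 127 protein-coding members and 3 sets of other protein-coding genes. The bar of the members reaches 82.7%, and the bars of the other sets reach 20.1%, 28.2% and 20.7%.

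The 30 genes kept out only by the limit on ein5-1 dcl4-2 gave the closest set for comparison. Their median was 2481 units in ein5-1 dcl4-2, against 34.6 units for the 128 genes, which the limit itself fixes. In the other genotypes their medians were 4.53 units in ein5-1 dcl4-2 dcl2-1, 30.6 units in ein5-1 dcl2-1 and 38.1 units in ein5-1. The median ratio of ein5-1 dcl2-1 to ein5-1 was 0.853 for the 30 genes and 1.09 for the 128 genes, and that of ein5-1 dcl4-2 dcl2-1 to ein5-1 dcl2-1 was 0.123 and 0.157. All 22 tested of the 30 were higher in ein5-1 dcl2-1 than in dcl2-1 and lower in ein5-1 dcl4-2 dcl2-1 than in ein5-1 dcl2-1 in limma. The differences between these sets were not tested. A single exon was annotated in 19 of the 30 genes (63.3%).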

How the data were processed

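Small RNAs from the aerial parts of 15 genotypes were profiled in 59 libraries. Reads were handled with Bowtie 1.2.2, SAMtools 1.9 and DESeq2 on build TAIR10, per the submitters' processing notes; how each read was counted and what the values were divided by are not given in the sources used here. The authors deposited 1 table of 32420 genes, 32375 with values. Its 22-nt columns hold a signal per gene, headed TPM per the file headers, as 1 mean per genotype; their totals differ between genotypes, so they are not shares of a fixed total. The same deposited table gives the authors' log2 fold change, p-value and adjusted p-value for 8 comparisons, of which 4 are used here.

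Each mean was resolved into whole reads of single libraries by a search over the worth of 1 read in each library, with a tolerance of 0.6 of the last printed digit, for means up to 100 units in the columns printed to fewer digits. This gave library values for 98.8% to 99.95% of genes per genotype. Between 21392 and 298481 reads were recovered per library, and 1 read was worth 0.330 to 4.74 units. No 2 libraries of a genotype agreed within counting noise: the lowest chi-square per gene was 1.17. In ein5-1 dcl4-2 dcl2-1 it was 1.47 for the pair A-B and 1.99 for the pair C-D. Pairs that mixed these, such as A-C, gave 2.31 to 2.46. The residual signal of this genotype thus comes from libraries that were unlike. Pairs of ein5-1 dcl4-2 ago1-27 libraries gave 2.30 to 2.84. The reason for these values was not tested. Log2(units + 1) of the 2 genotypes compared was tested in limma 3.58.1 (R 4.3.3) with trend, after genes averaging below 1 unit were dropped, and p-values were adjusted over all genes by Benjamini and Hochberg with a threshold of 0.05; 9 comparisons were made this way. The search and the test were checked on simulated data. The search returned 0 wrong values. In both comparisons simulated, the test called 4% of 2-fold, 74% of 4-fold and 98% of 8-fold increases. It called 44% of 8-fold decreases in ein5-1 dcl2-1 against dcl2-1. In ein5-1 dcl4-2 dcl2-1 against ein5-1 dcl2-1 it called 38% of them. A gene that was not called can therefore still differ. A fold on this scale understates the change of low genes. The count test planned for a count table was not used, since the table holds means of scaled values.

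The 128 genes, the lists and the role groups were chosen with earlier results of these data known. Named are the 15 highest genes, those beside each threshold and at the ends of the 2 DCL2 comparisons, and members of the lists. Examples in the role groups were chosen after their values were seen. Gene models and sequences are from RefSeq (TAIR10.1). Shared windows were counted over all annotated transcripts at 22 bases. Alternatives were other pseudocounts, no filter, quantile normalization, scaling to 181 microRNA loci, all libraries in 1 fit, each library left out, and other thresholds in the choice. A recovery tolerance of 1.0 and the omission of members with shared windows or overlaps were added after seeing the data. Intervals and limits cover counting error only.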

Additional observations from a re-analysis of the deposited data

Results flagged for a closer look

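Libraries were compared within genotypes for the genes and tests printed above, and 6 of 75 groups of 4 libraries held a value farther from the others than Dixon's 95% critical value allows; chance gives about 1 in 20. BRG2 had 14.3 units in library D of ein5-1 dcl4-2 dcl2-1, where the other libraries had 1.97 to 3.17 units. ADS1 had 8.53 units in library A of ein5-1 dcl2-1, against 1.9 to 2.23 units in its other libraries. In dcl2-1 the other libraries were all at 0 for ADS1 (1.78 units in library A), EXPA4 (0.894 units in library B), AT2G15320 (0.888 units in library A) and AZG1 (2.66 units in library A), and each of these values stands for at most 3 reads.

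The decay mutants differed in the presence of dcl2-1. There, 116 of the 118 tested genes were higher in ein5-1 than in ski2-2 and 1 was lower, in limma with an adjusted p below 0.05, where 5.88% of all genes tested were higher and 0.782% lower. The genes were chosen for at least 4-fold more signal in ein5-1 than in ski2-2, so a gap between the decay mutants was part of the choice.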

How the results depend on the processing

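The counts of the 128 genes called in ein5-1 dcl2-1 against dcl2-1, in ein5-1 dcl4-2 dcl2-1 against ein5-1 dcl2-1, and in ein5-1 dcl2-1 against ski2-2 dcl2-1 kept within 1.5 times under every alternative run. Leaving out 1 library gave 114 to 116 higher and 1 lower, 101 to 111 lower and 0 higher, and 115 to 116 higher and 1 lower in these. In ein5-1 dcl4-2 dcl2-1 against dcl2-1, the 14 higher genes became 4 with a pseudocount of 0.1, 7 without the filter, 8 with quantile normalization, 5 with microRNA scaling and 7 of 94 with all libraries in 1 fit, and 6 to 11 without 1 library, with 1 lower throughout. Over all genes in that comparison, 351 of 12599 were higher, which became 232 with quantile normalization and 108 of 12843 with microRNA scaling. Against ski2-2 dcl4-2 dcl2-1, the 15 higher became 8 with the pseudocount of 0.1 and the 1 lower became 0 with microRNA scaling and without the members that share windows or overlap; without 1 library they were 11 to 16 and 1 to 2. In ski2-2 dcl4-2 against dcl4-2, the 7 higher became 2 with the pseudocount of 0.1 and 2 with microRNA scaling, and the 5 lower became 3 with that pseudocount, 8 with quantile normalization, 12 with microRNA scaling, 3 of 94 in 1 fit and 2 without shared members, and without 1 library 2 to 6 and 3 to 7. The microRNA scaling moved the median of all genes to -0.54. Over all genes, 997 of 12825 were higher and 785 lower, and quantile normalization gave 952 and 1005. MicroRNA scaling gave 392 higher and 2120 lower of 13181. In ski2-2 dcl2-1 against dcl2-1, leaving out 1 library gave 0 to 2 higher and 0 to 1 lower. In ski2-2 dcl4-2 dcl2-1 against ski2-2 dcl4-2, the 3 higher became 1 with the pseudocount of 0.1 and 1 without shared members, the 4 lower became 8 with quantile normalization, and 2 to 3 and 3 to 5 without 1 library. Over all genes there, 602 of 14134 were lower, and 812 with quantile normalization. Between the AGO1 alleles, the 1 higher became 2 with quantile normalization, 3 with microRNA scaling and 0 of 94 in 1 fit, the 47 lower became 19 with microRNA scaling, 4 of 94 in 1 fit and, without shared members, 31, and without 1 library 0 to 1 and 38 to 63. Over all genes, 1026 of 15910 were higher and 2157 lower, and quantile normalization gave 1388 and 1792. With microRNA scaling 2147 were higher and 1113 lower of 16165. Counts over all genes under the other alternatives are not given here. A minimum of 20 units in ein5-1 left 65 genes and a ratio of 6-fold left 77. Of 583 alternative settings for the 44 printed gene tests, 530 gave the same call. AT4G34950 in ein5-1 dcl4-2 dcl2-1 over ein5-1 dcl2-1, not called at -0.25, ran from -0.457 to 0.00203 without 1 library, the sign changing without library B of ein5-1 dcl4-2 dcl2-1. The causes were not tested.

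No paired analysis was possible because the deposited columns carry no replicate numbers. The count tests planned for a table of counts and their normalizations were not run, since library reads here come from a search over means. Depth limits the low side: 42 of the genes tested against dcl2-1 had 1 to 3 reads in its 4 libraries.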
